A study of Mus musculus with 59 samples.

Results

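The genes described here encode signalling proteins of the postsynaptic side of excitatory synapses: the 4 subunits of calcium/calmodulin-dependent protein kinase II (Camk2a, Camk2b, Camk2d and Camk2g) and 5 regulators or effectors of small GTPases (Iqsec2, Agap2, Sipa1l1, Kalrn and Baiap2). They were taken by symbol from the deposited expression table, and all 9 were found among its 18088 genes. Of the 9, Baiap2 encodes an adaptor and not an enzyme. The samples were 59 prefrontal cortices, 1 per mouse, of C57BL/6J males and females at postnatal day 25, and messenger RNA was measured by sequencing. HT mice carried 1 knock-in (KI) copy of Shank3, and WT mice were wild type. Shank3 is a scaffold of the postsynaptic density. Lithium, fluoxetine or vehicle reached the pups through the milk of the dam from day 3 to day 24, for 3 weeks. The 6 arms were HT lithium (n = 10), HT fluoxetine (n = 10), HT vehicle (n = 10), WT lithium (n = 9), WT fluoxetine (n = 10) and WT vehicle (n = 10), with 5 mice per sex except for 4 WT lithium females. The column names carry the prefix L68P, which the labels do not explain. The labels name no litter, and each pup therefore enters the tests as an independent animal although the drug came through the dam.

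CaM kinase II is a ring-shaped assembly of subunits that calcium-loaded calmodulin switches on during synaptic activity. The kinase then phosphorylates receptors, scaffolds and GTPase regulators, and its alpha and beta subunits are the main forms of the forebrain. Small GTPases steer receptor traffic and the actin skeleton of dendritic spines. Exchange factors load them with GTP and GTPase-activating proteins shut them off.

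With lithium, Iqsec2, Agap2, Sipa1l1 and Baiap2 rose and Camk2d fell in HT mice, and Baiap2 rose in WT mice. With fluoxetine, Sipa1l1 rose in WT mice. None of the HT calls held once a trend on transcript GC content was removed. The upstream sequence of each of these 5 genes is shown because they are the members whose level changed with lithium. The windows are the 250 bases before a RefSeq start site on GRCm38.p6, and 7 of the 9 members had an entry in the promoter table. Iqsec2 and Sipa1l1 had 2 windows each, of which the one nearest the annotated gene start is shown. Capitals mark GC boxes, GGGCGG or its reverse complement CCGCCC.
Camk2d, chr3:126596701-126596950, plus strand: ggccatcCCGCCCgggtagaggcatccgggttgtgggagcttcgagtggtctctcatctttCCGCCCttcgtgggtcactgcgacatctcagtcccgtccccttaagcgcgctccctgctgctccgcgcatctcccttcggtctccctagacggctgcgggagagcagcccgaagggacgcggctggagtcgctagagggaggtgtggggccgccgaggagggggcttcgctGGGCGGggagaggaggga
Iqsec2, chrX:152144018-152144267, plus strand: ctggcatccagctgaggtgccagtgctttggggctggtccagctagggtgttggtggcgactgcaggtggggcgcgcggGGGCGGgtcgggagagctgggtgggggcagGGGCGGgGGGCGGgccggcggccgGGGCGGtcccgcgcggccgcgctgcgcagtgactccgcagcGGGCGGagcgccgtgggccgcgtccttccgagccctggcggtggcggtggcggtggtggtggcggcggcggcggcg
Agap2, chr10:127078657-127078906, plus strand: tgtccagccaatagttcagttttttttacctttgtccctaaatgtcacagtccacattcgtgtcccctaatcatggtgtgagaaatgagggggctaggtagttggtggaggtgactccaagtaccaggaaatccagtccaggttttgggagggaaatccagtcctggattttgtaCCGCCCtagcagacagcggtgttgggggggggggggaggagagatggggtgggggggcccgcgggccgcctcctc
Sipa1l1, chr12:82169766-82170015, plus strand: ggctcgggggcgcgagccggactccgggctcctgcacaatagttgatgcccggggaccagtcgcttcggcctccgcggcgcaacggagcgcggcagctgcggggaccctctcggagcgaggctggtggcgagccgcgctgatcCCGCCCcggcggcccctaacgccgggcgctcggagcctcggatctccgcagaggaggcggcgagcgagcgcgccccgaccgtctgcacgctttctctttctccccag
Baiap2, chr11:119942842-119943091, plus strand: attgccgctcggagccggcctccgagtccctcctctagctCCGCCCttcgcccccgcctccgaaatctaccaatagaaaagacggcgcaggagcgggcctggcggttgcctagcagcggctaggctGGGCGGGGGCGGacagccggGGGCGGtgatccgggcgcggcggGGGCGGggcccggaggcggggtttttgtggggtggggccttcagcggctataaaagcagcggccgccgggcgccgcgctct

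Every one of these 5 windows held a GC box, with 5 in Iqsec2, 5 in Baiap2, 3 in Camk2d, 1 in Agap2 and 1 in Sipa1l1. Of 32851 RefSeq windows of the same length, 32.7% held at least 1 GC box. Those windows were not matched to the 5 genes by level or GC content, and windows of members not called are not shown. Whether GC boxes go with the changes under lithium was not tested. The windows also had more than the median GC content of all windows (52.4%), from 56.0% in Agap2 to 80.0% in Iqsec2. CpG dinucleotides numbered 37 in Sipa1l1, 34 in Iqsec2, 31 in Baiap2, 23 in Camk2d and 6 in Agap2, and the median of all windows was also 6. A TATA box (TATAAA, either strand, in 12.4% of all windows) was found in the Baiap2 window and in no other of the 5. No window held a cyclic AMP response element (TGACGTCA, 1.55% of windows), an E-box (CACGTG, 6.02%), a TCF/LEF motif (ATCAAAG, 3.21%) or an EGR motif (GCGTGGGCG, 0.536%). The Iqsec2 window lies before the GRCm38 gene start of the coordinates given below, while the windows of Camk2d, Agap2, Sipa1l1 and Baiap2 start downstream of theirs.

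Levels are the authors' normalized counts, a gene's count divided by a size factor of its library, and libraries held 22984556 to 35969254 reads. A total of 16599 genes with a mean of at least 10 were tested, all 9 members among them, each at or above the 88.7th percentile of level. Differences are log2 fold changes ± SE, averaged over the sexes, and adjusted p-values come from limma with Benjamini-Hochberg adjustment over all genes tested. Gene coordinates are on GRCm38. In bulk tissue, fewer cells of a type and less RNA per cell cannot be told apart. The cortical excitatory markers Slc17a7 and Neurod6 were present in every library, the lowest value being 1180 normalized counts, for Neurod6. Shank3 itself had 5748, 7756 and 8248 normalized counts (lowest, median and highest) in HT vehicle mice, against 6022, 7616 and 8496 in WT vehicle mice, and gene counts do not separate a knock-in copy from the wild-type one. Markers of the olfactory bulb, which borders the dissected region, varied widely, and a bulb index (8 bulb markers, each divided by its average across the series, then averaged) ran from 0.07 to 4.36. Of the 59 libraries, 8 stood apart by a bulb index above 2.5 or less than 5% mitochondrial reads: HT lithium females 4 and 5, HT fluoxetine male 5, HT vehicle female 1, HT vehicle male 4, and WT fluoxetine females 1, 2 and 4. Values without them are given beside the results that rest on them. The limit did not fall in a gap of the bulb index. HT fluoxetine male 5 (2.5127) was just above it, and HT vehicle male 5 (2.499) and WT lithium female 1 (2.4797), just below it, were kept.

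Camk2a (ENSMUSG00000024617, chromosome 18, 60925618 to 60988152, plus strand), the alpha subunit gene, was the most abundant member per kilobase of merged exon. In WT vehicle mice it stood at 12038 ± 1573 normalized counts per kilobase (SD, n = 10), above Agap2 at 5671 ± 849, Camk2b at 2565 ± 169 and Baiap2 at 1408 ± 79.5, and the ranges of these 4 did not overlap between neighbours. Iqsec2 (1009 ± 138), Camk2g (998 ± 105) and Sipa1l1 (877 ± 43.1) followed with overlapping ranges. Kalrn stood at 695 ± 74.2 and Camk2d was lowest at 157 ± 13.9. Camk2a, Agap2, Camk2b and Baiap2 kept these places, and Camk2d stayed last, when the length of the longest transcript was used instead. The gaps were not kept: Agap2 (5982 ± 895) was then close to Camk2b (5673 ± 375), and Baiap2 (1755 ± 99.1) to Camk2g (1725 ± 181). Iqsec2, Camk2g and Kalrn then changed place, Iqsec2 moving to the 8th. Within the kinase family, Camk2a made up 75.5% to 78.0% of the summed per-kilobase level on average per arm, and Camk2d 0.8% to 1.1%. These shares rest on merged exon length: per kilobase of the longest transcript, Camk2d in WT vehicle mice stood at 638 normalized counts, against 157 per kilobase of merged exon, and Camk2a at 18081, against 12038.

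**Figure D1:**
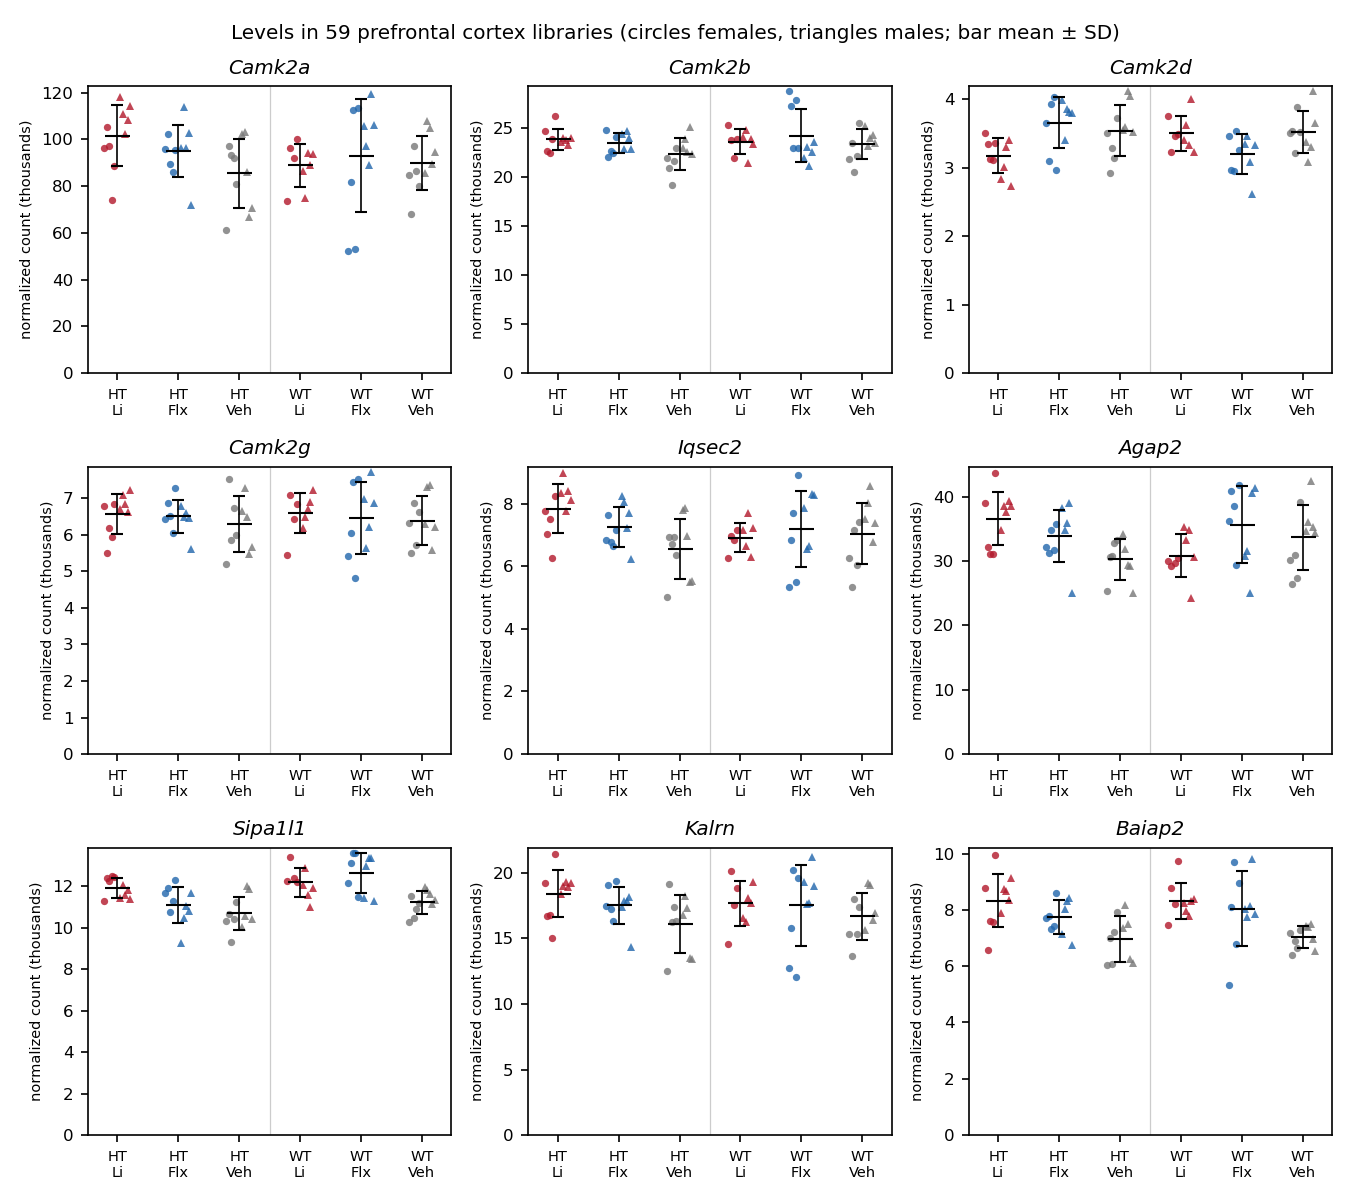
Normalized counts (axes from 0) of the 9 genes in 59 libraries by arm, with females as circles, males as triangles and bars for mean ± SD (Li lithium, Flx fluoxetine, Veh vehicle). Camk2a in WT fluoxetine mice had the widest spread, from 52350 to 119461, and Camk2b and Sipa1l1 varied least within groups.

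The members differed in how much they varied between mice of a group. The coefficient of variation within the 12 groups was 15.3% for Camk2a and 13% for Agap2, against 6.1% for Camk2b and 6.07% for Sipa1l1. Counting error alone would give 0.329% for Camk2a and at most 1.7%, for Camk2d, so depth did not limit these values.

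Iqsec2 (ENSMUSG00000041115, chromosome X, 152144268 to 152225236, plus strand) encodes an Arf exchange factor of excitatory synapses. It had 6259, 7940 and 8970 normalized counts (lowest, median and highest) in HT lithium mice, against 5019, 6816 and 7848 in HT vehicle mice. Of the 10 lithium libraries, 9 lay above the vehicle median and 5 above the highest vehicle library, while the ranges overlapped. The log2 fold change was 0.26 ± 0.08 (limma adjusted p = 0.0105), with 0.21 in females and 0.32 in males. Iqsec2 passed in males alone and not in females alone.

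Agap2 (ENSMUSG00000025422, chromosome 10, 127075284 to 127093169, plus strand) encodes an Arf GTPase-activating protein that also binds phosphoinositide 3-kinase. Its normalized counts were 31041, 38036 and 43653 in HT lithium mice, against 25041, 30710 and 34202 in HT vehicle mice. All 10 lithium libraries lay above the vehicle median and 7 lay above every vehicle library. The change was 0.27 ± 0.08 (limma adjusted p = 0.0155), 0.20 in females and 0.34 in males. Agap2 did not pass without the 8 libraries that stood apart (0.21, limma adjusted p = 0.07) or under quantile normalization (0.16, limma adjusted p = 0.07). It passed in neither sex alone (males 0.34, limma adjusted p = 0.0531).

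Sipa1l1 (ENSMUSG00000042700, chromosome 12, 82169320 to 82451786, plus strand) encodes a Rap GTPase-activating protein of dendritic spines. Its normalized counts were 11311, 11959 and 12503 in HT lithium mice, against 9342, 10516 and 12019 in HT vehicle mice. All 10 lithium libraries exceeded the vehicle median, and 5 exceeded the highest vehicle library. The change of 0.16 ± 0.04 had the smallest adjusted p of the 9 genes (limma adjusted p = 0.00541), with 0.23 in females and 0.09 in males. Sipa1l1 did not pass under quantile normalization (0.09, limma adjusted p = 0.317) or in males alone (limma adjusted p = 0.337).

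Baiap2 (ENSMUSG00000025372, chromosome 11, 119942763 to 120006782, plus strand) encodes IRSp53, an adaptor that links Rac and Cdc42 to actin and binds Shank proteins. It had 6584, 8507 and 9969 normalized counts in HT lithium mice, against 6050, 7112 and 8189 in HT vehicle mice. Of the lithium libraries, 9 of 10 were above the vehicle median and 6 above the highest vehicle value. The change was 0.26 ± 0.07 (limma adjusted p = 0.00809), close in females (0.24) and males (0.28). Baiap2 passed in males alone and not in females alone.

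Camk2d (ENSMUSG00000053819, chromosome 3, 126596302 to 126846326, plus strand), the delta subunit gene, was the member that fell. It had 2731, 3221 and 3503 normalized counts in HT lithium mice, against 2922, 3542 and 4120 in HT vehicle mice. None of the 10 lithium libraries reached the vehicle median, and 2 lay below every vehicle library. The change was -0.16 ± 0.06 with a limma adjusted p of 0.049, at -0.01 in females and -0.30 in males. The call was at the edge of the threshold: it held in 8 of the 20 fits that left out 1 library each, with limma adjusted p-values from 0.0263 to 0.11. Without the 8 libraries that stood apart the change was -0.12 (limma adjusted p = 0.218), the unfiltered fit gave a limma adjusted p of 0.053, and the difference between the sexes (0.30 ± 0.12) gave a limma adjusted p of 0.207.

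The other 4 members did not pass in HT mice. Camk2a stood at 74168, 103759 and 118103 normalized counts in HT lithium mice, against 61260, 89057 and 103155 in HT vehicle mice, a difference of 0.26 ± 0.11 (limma adjusted p = 0.0769). It passed when the 8 libraries were left out (0.22, limma adjusted p = 0.0373) and in 3 of 20 fits that left out 1 library, HT lithium female 4, HT vehicle male 1 or HT vehicle male 2. Kalrn (ENSMUSG00000061751, chromosome 16, 33969073 to 34573532, minus strand) encodes the Rac exchange factor kalirin, which enlarges spines. Its normalized counts were 15026, 18983 and 21435 in HT lithium mice, against 12526, 16582 and 19157 in HT vehicle mice, at 0.20 ± 0.08 (limma adjusted p = 0.0644). This too passed in 3 of 20 fits, those without HT lithium female 4, HT vehicle female 2 or HT vehicle male 2. Camk2b (ENSMUSG00000057897, chromosome 11, 5969644 to 6066362, minus strand), the actin-binding beta subunit gene, differed by 0.10 ± 0.04 (limma adjusted p = 0.109), and Camk2g (ENSMUSG00000021820, chromosome 14, 20734875 to 20794088, minus strand) by 0.07 ± 0.07 (limma adjusted p = 0.535).

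In HT mice on lithium, 4 of the 9 genes were called higher, while 10.9% of all tested genes were, and 1 of 9 was called lower, against 9.43%. Their median log2 fold change was 0.20, beside -0.002 over all genes. Fold changes in this comparison followed the GC content of the transcripts across genes (Spearman 0.47, over genes, which are not independent replicates). Of the 9 members, 7 had a GC content above the median of tested genes (49.5%), led by Agap2 (63.0%), Iqsec2 (59.6%) and Baiap2 (57.7%), while Camk2d had 43.9%. When a trend on GC content was removed within each library, 0 of the 9 passed: Iqsec2 stood at 0.13 (limma adjusted p = 0.265), Agap2 at 0.11 (limma adjusted p = 0.244), Baiap2 at 0.15 (limma adjusted p = 0.143), Sipa1l1 at 0.12 (limma adjusted p = 0.0594) and Camk2d at -0.07 (limma adjusted p = 0.429). Kalrn, with 45.5% GC, then stood at 0.26 (limma adjusted p = 0.054).

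**Figure D2:**
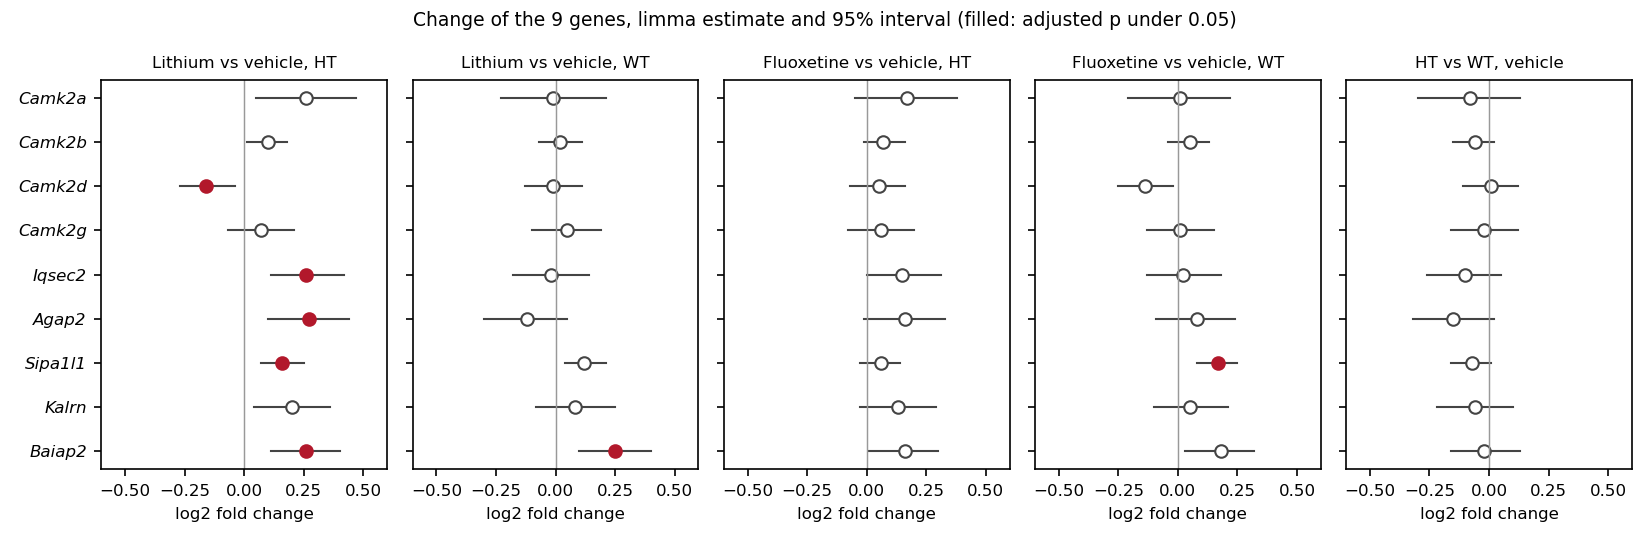
Log2 fold changes of the 9 genes (limma estimates with 95% intervals) in 4 drug comparisons and between genotypes under vehicle, with filled circles for an adjusted p under 0.05. In HT mice lithium gave 5 filled circles, from -0.16 for Camk2d to 0.27 for Agap2, and the HT against WT panel has none.

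In WT mice lithium was followed by a rise of Baiap2 and by no other change past the threshold. Baiap2 had 7469, 8242 and 9741 normalized counts in WT lithium mice, against 6402, 7079 and 7498 in WT vehicle mice. All 9 lithium libraries lay above the vehicle median and 8 above every vehicle library. The change of 0.25 ± 0.07 (limma adjusted p = 0.0216) was 0.31 in females and 0.18 in males. It was lost without WT lithium female 4 (0.21, limma adjusted p = 0.0704) and when a trend on transcript length was removed (0.23, limma adjusted p = 0.0729). Baiap2 passed in neither sex alone.

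Sipa1l1 had 11029, 12237 and 13435 normalized counts in WT lithium mice, against 10280, 11262 and 11955 in WT vehicle mice. Of the 9 lithium libraries, 8 lay above the vehicle median, and the difference of 0.12 ± 0.04 missed the threshold (limma adjusted p = 0.0521). With the replicate number as a block it passed (0.12, limma adjusted p = 0.0458). Agap2 stood at 24318, 30531 and 35225 normalized counts in WT lithium mice, against 26362, 34562 and 42384 in WT vehicle mice, and Iqsec2 at 6253, 6950 and 7711, against 7276 at the vehicle median. The differences were -0.12 ± 0.09 for Agap2 (limma adjusted p = 0.373) and -0.02 ± 0.08 for Iqsec2 (limma adjusted p = 0.917). The 4 kinase subunit genes lay between -0.01 and 0.05, and Kalrn at 0.08 ± 0.08.

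Of the 9 members, 1 was called higher and 0 lower in WT mice on lithium, against 7.66% and 5.11% of all genes tested, and their median was 0.02. Here fold changes followed transcript length (Spearman 0.34) rather than GC content (0.01).

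Whether lithium acted differently in the 2 genotypes was tested by an interaction, HT effect minus WT effect. None of the 9 passed, where 0.00602% of all genes did (1 of 16599). The largest differences were those of Agap2 (0.40 ± 0.12, limma adjusted p = 0.206) and Iqsec2 (0.28 ± 0.11, limma adjusted p = 0.297), while Baiap2 (0.01 ± 0.10) and Sipa1l1 (0.04 ± 0.06) were near 0. The 95% interval of the Baiap2 difference ran from -0.20 to 0.22. So the calls that passed in HT mice and not in WT mice were not shown to differ between genotypes.

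Fluoxetine in HT mice left all 9 genes uncalled, beside 0.277% of all genes. All 9 differences were above 0, from 0.05 to 0.17, beside 49.6% of all genes above 0. Camk2a stood at 72077, 96016 and 114008 normalized counts in HT fluoxetine mice, against 89057 at the HT vehicle median. All 8 bulb markers lay below 0 here (list median -0.57), and fold changes followed GC content (Spearman 0.30). With the mean log2 level of the bulb markers as a covariate, the median of the 9 members was 0.08, against 0.13. Baiap2 came nearest (0.16 ± 0.07, limma adjusted p = 0.369). These comparisons use the same HT vehicle libraries as those of lithium.

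In WT mice fluoxetine raised Sipa1l1, the Rap GTPase-activating protein. Its normalized counts were 11283, 13070 and 13641 in WT fluoxetine mice, against 10280, 11262 and 11955 in WT vehicle mice. All 10 fluoxetine libraries lay above the vehicle median and 7 above every vehicle library. The change was 0.17 ± 0.04 (limma adjusted p = 0.0121), with 0.23 in females and 0.11 in males, and 1 of 9 members called stands beside 5.66% of all genes. Sipa1l1 did not pass under quantile normalization (0.15, limma adjusted p = 0.116), with only the groups compared (limma adjusted p = 0.0641), with the length trend removed (0.11, limma adjusted p = 0.134) or in males alone (limma adjusted p = 0.377). The 8 libraries that stood apart include WT fluoxetine females 1, 2 and 4 and no WT vehicle library. Without these 8, 4 of the 9 members passed: Sipa1l1, Baiap2, Camk2a and Kalrn. Baiap2 then differed by 0.33 (limma adjusted p = 6.24e-04), against 0.18 ± 0.07 in all libraries (limma adjusted p = 0.137). The 5.66% belongs to the fit with all libraries and is no background for these 4 calls. Over 13 settings, this one among them, all genes called ran from 424 to 3690, with 939 as reported. Leaving out WT fluoxetine female 1 alone brought Baiap2 past the threshold (0.24, limma adjusted p = 0.0157). With the mean log2 level of the bulb markers as a covariate, Sipa1l1 alone passed. The median of the 9 members was then -0.02, against 0.15 without the 8 libraries.

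Camk2b differed by sex under fluoxetine in WT mice. Its normalized counts were 28859, 27327, 22957, 27945 and 23013 in WT fluoxetine females, against 21902, 23484, 20555, 22141 and 25571 in WT vehicle females. In males they were 22028, 23082, 21139, 22593 and 23614 on fluoxetine, against 25274, 23228, 24044, 24335 and 23499 on vehicle. The 3 highest fluoxetine females were numbers 1, 4 and 2, the 3 libraries of that group with bulb indices of 3.84, 4.36 and 2.69. The effect was 0.19 in females and -0.10 in males, a difference (females minus males) of 0.29 ± 0.09 (limma adjusted p = 0.0284). In this contrast 8.66% of all genes passed. Without the libraries that stood apart the difference was 0.12 (limma adjusted p = 0.489), without WT fluoxetine female 1 alone 0.25 (limma adjusted p = 0.0678), and with the GC trend removed 0.15 (limma adjusted p = 0.335). Camk2b also did not pass under quantile normalization or with only the groups compared. It did pass with the mean log2 level of the bulb markers as a covariate, where Agap2 passed too.

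No member passed for sex by lithium in HT mice (0.012% of all genes), sex by lithium in WT mice (0%), sex by fluoxetine in HT mice (0%) or sex by genotype under vehicle (0.00602%). Nor did any pass for genotype by fluoxetine (0%). Where limma called 0 genes, an unadjusted p under 0.05 was reached by 1467 genes for sex by lithium in WT mice, 881 for sex by fluoxetine in HT mice and 844 for genotype by fluoxetine.

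The genotypes did not differ past the threshold for any member. Under vehicle the 9 differences (HT minus WT) lay between -0.15 for Agap2 and 0.01 for Camk2d. Agap2 had 25041, 30710 and 34202 normalized counts in HT vehicle mice, against 26362, 34562 and 42384 in WT vehicle mice (limma adjusted p = 0.789), and the 95% interval ran from -0.32 to 0.02. Camk2a differed by -0.08 ± 0.11, with an interval from -0.30 to 0.13. Over all genes, limma called 0 (0%) here; an unadjusted p under 0.05 was reached by 1074, and DESeq2 called 6 and edgeR 1.

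Under lithium, too, 0% of genes passed, with 1839 at an unadjusted p under 0.05, 37 by DESeq2 and 0 by edgeR. Agap2 was at 0.25 ± 0.09 (limma adjusted p = 0.288), Iqsec2 at 0.18 ± 0.08 (limma adjusted p = 0.39) and Camk2d at -0.14 ± 0.06 (limma adjusted p = 0.37). Under fluoxetine 0% passed with limma, 1883 had an unadjusted p under 0.05, 19 passed by DESeq2 and 1 by edgeR. Sipa1l1 had 9293, 11181 and 12326 normalized counts in HT fluoxetine mice, against 11283, 13070 and 13641 in WT fluoxetine mice. That difference, -0.19 ± 0.04, had a limma adjusted p of 0.143 and passed with DESeq2 (adjusted p = 0.0142) and without WT fluoxetine female 5 (limma adjusted p = 0.0251). Camk2d had 2972, 3814 and 4041 in HT fluoxetine mice, against 2617, 3295 and 3542 in WT fluoxetine mice, at 0.19 ± 0.06 (limma adjusted p = 0.223).

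Across the 59 libraries, with the 12 group means subtracted, 6 members were lower where bulb markers were higher. The correlation with the mean log2 level of the 8 bulb markers was -0.86 for Kalrn, -0.83 for Camk2a, -0.83 for Camk2g, -0.83 for Iqsec2, -0.62 for Baiap2 and -0.52 for Agap2 (Pearson). Spearman coefficients were -0.86, -0.82, -0.84, -0.84, -0.56 and -0.52 in the same order of genes. Camk2b (0.37, Spearman 0.32), Camk2d (0.41, Spearman 0.42) and Sipa1l1 (0.36, Spearman 0.37) ran the other way. In permutations within groups (100000 draws, two-sided, adjusted over 9 relations) the adjusted p was 2.25e-05 for Kalrn, Camk2a, Camk2g and Iqsec2, whose raw p of 1e-05 is the smallest the draws can give. It was 3.6e-05 for Baiap2, 0.000705 for Agap2, 0.00175 for Camk2d, 0.0289 for Sipa1l1 and 0.0369 for Camk2b. Leaving out the 2 most distant libraries gave Pearson coefficients from -0.85 (Kalrn) to -0.53 (Agap2) for the 6 members, and 0.26 for Camk2b.

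**Figure D3:**
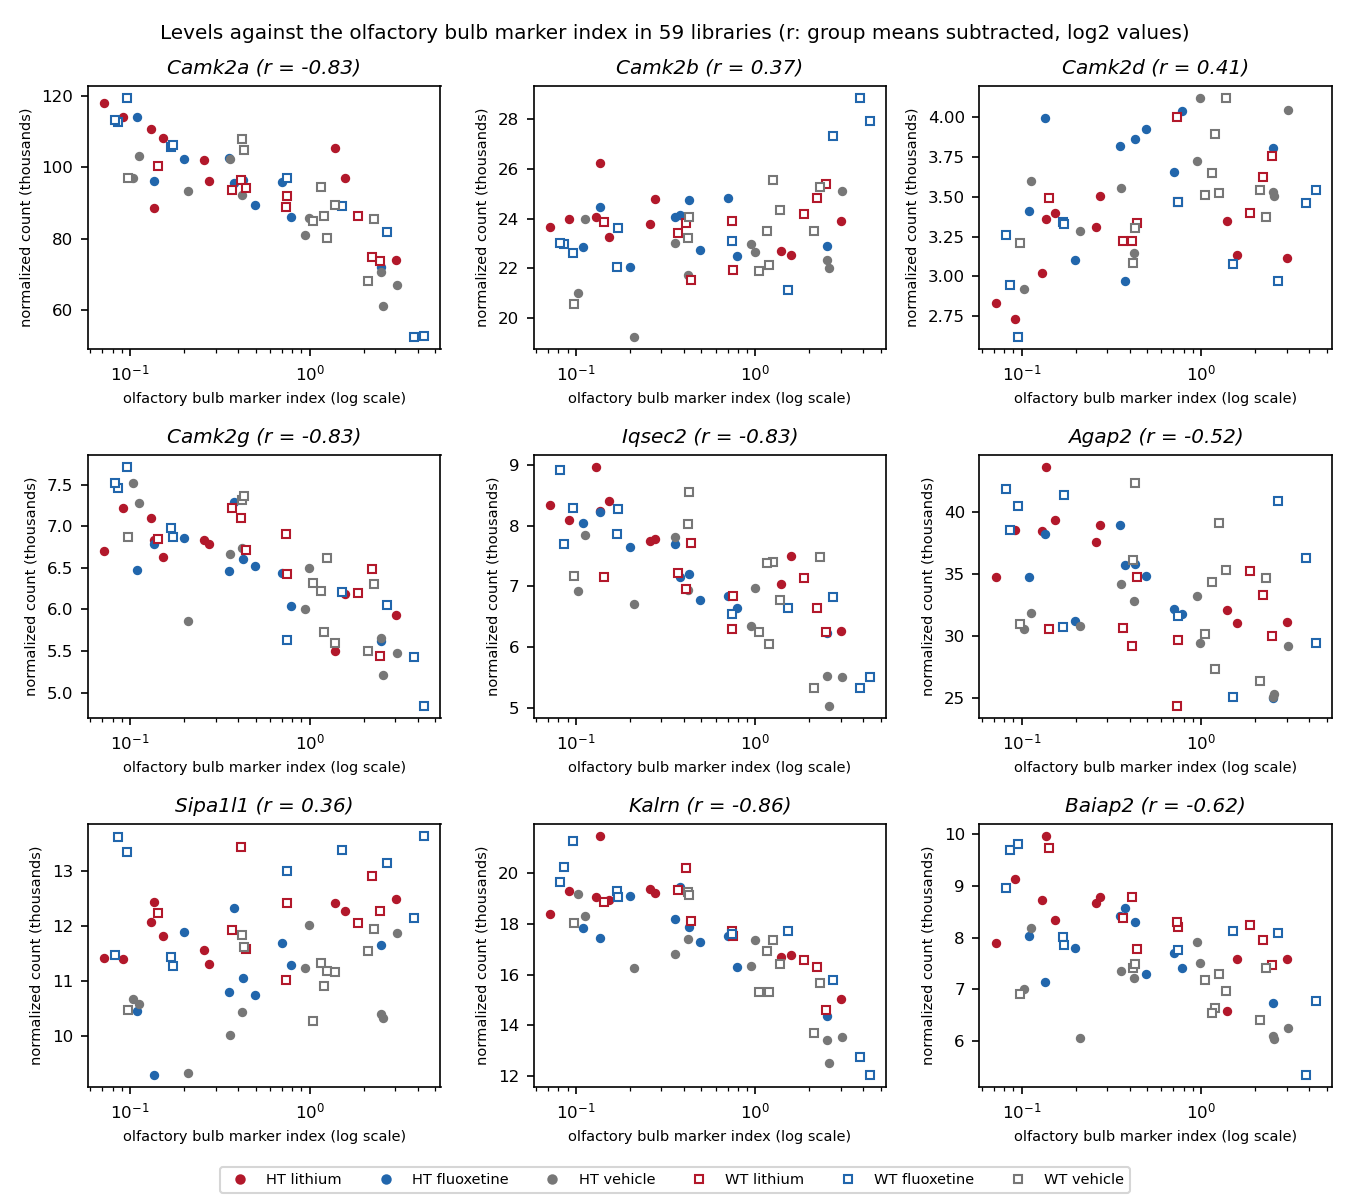
Normalized counts of each gene against the olfactory bulb marker index (log axis) in 59 libraries, with filled circles for HT and open squares for WT mice, colours for the drug, and above each panel Pearson r of log2 values with the mean log2 level of the bulb markers, group means subtracted. Kalrn, Camk2a, Camk2g and Iqsec2 fall along the axis, and Sipa1l1 does not.

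The bulb index differed between arms as well. Its lowest, median and highest values were 0.07, 0.21 and 3.01 in HT lithium mice, against 0.10, 0.68 and 3.06 in HT vehicle mice. In WT lithium mice they were 0.14, 0.74 and 2.48, against 0.10, 1.18 and 2.28 in WT vehicle mice. None of the 8 bulb markers passed in either comparison, and all 8 lay below 0 in both, with list medians of -0.95 (HT) and -0.31 (WT). With the mean log2 level of the 8 bulb markers as a covariate, Iqsec2 (0.18), Agap2, Sipa1l1 (0.18) and Baiap2 (0.20) still passed in HT mice. Camk2b joined them (0.11, limma adjusted p = 0.0256), and Camk2d did not pass (-0.12, limma adjusted p = 0.083). Over all 16599 genes, calls in either direction also rose with this covariate, to 4174 from 3374. With the bulb marker level and the GC trend both taken out, Sipa1l1 and Kalrn (0.15, limma adjusted p = 0.0214) passed.

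Markers of other cell types were also called with lithium in HT mice, beside 10.9% of all genes higher: 3 of 10 astrocyte, 3 of 8 microglia, 2 of 6 oligodendrocyte precursor, 2 of 7 endothelial, 1 of 10 excitatory neuron and 1 of 10 interneuron markers were higher, and none of these lists had a marker that was lower. The summed excitatory neuron markers ran from 56976 to 81263 normalized counts (median 74114) in HT lithium mice, against 47357 to 73322 (median 66975) in HT vehicle mice. Summed astrocyte markers had medians of 156486 in HT lithium mice and 137435 in HT vehicle mice. Of 10 myelin, 8 striatum and 6 choroid plexus markers, 0 passed. Of the 10 myelin markers, 1 lay above 0 (list median -0.31). Summed myelin markers had medians of 101130 in HT lithium mice and 145262 in HT vehicle mice. In WT mice on lithium, 1 of 10 astrocyte, 2 of 8 microglia and 2 of 7 endothelial markers were lower, and no marker of the 10 lists was higher. Of all genes, 5.11% were lower and 7.66% higher there. In WT mice on fluoxetine 5 of 10 myelin markers and 1 of 8 microglia markers were lower, beside 5.66% of all genes called in either direction. HT vehicle female 1 had a choroid plexus index of 26.32. The part of these markers in the changes of the 9 genes was not tested, beyond the fits with the bulb markers as a covariate.

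**Figure D4:**
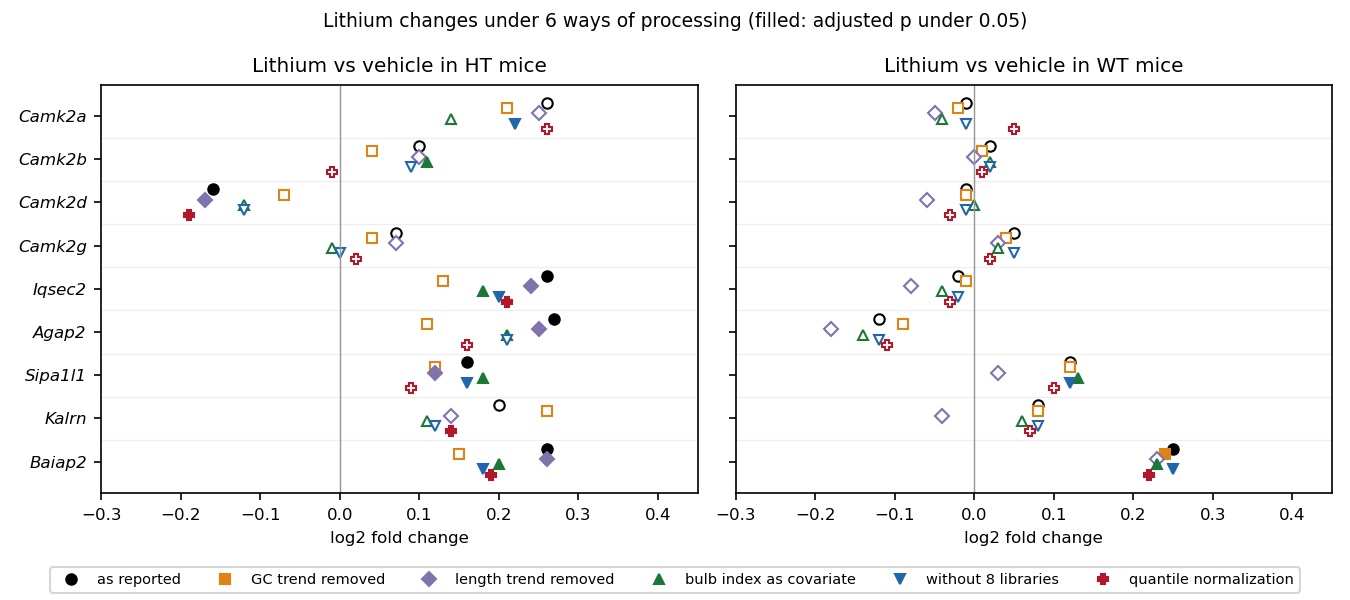
Log2 fold changes of the 9 genes with lithium in HT mice (left) and WT mice (right) under 6 ways of processing, filled where the adjusted p was under 0.05. In HT mice none of the 9 is filled when the GC trend is removed, and in WT mice Baiap2 keeps a value between 0.22 and 0.25.

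Among themselves, Camk2a, Camk2g, Iqsec2, Agap2, Kalrn and Baiap2 correlated positively in all 15 pairs, from 0.48 to 0.92. After subtraction of the group means, Camk2g and Kalrn correlated at 0.92 over the 59 libraries, Iqsec2 and Kalrn at 0.87 and Camk2a and Kalrn at 0.87 (Pearson, Spearman 0.94, 0.85 and 0.77, adjusted permutation p = 3.27e-05 for each). With the bulb markers also removed these values were 0.72, 0.56 and 0.54, and other pairs were lower, at 0.10 for Camk2a and Agap2, 0.25 for Camk2g and Agap2, 0.28 for Agap2 and Baiap2 and 0.29 for Camk2a and Baiap2. Camk2d ran against Camk2g (-0.55) and Camk2a (-0.44), and Camk2b against Camk2a (-0.53). Of the 36 pairs, 21 passed after adjustment, 15 of them positive.

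The genes whose level followed each member most closely over the 59 libraries, group means subtracted, were named by Pearson r. Bulb markers were not removed here, and Kalrn (-0.86), Camk2a, Camk2g and Iqsec2 (-0.83 each) correlated with them. Kalrn was nearest to Cyfip2 (0.97) and Itpr1 (0.96), Camk2a to Nptxr (0.96) and Phactr1 (0.95), and Camk2g to Ptprn2 (0.93) and Nos1ap (0.93). Iqsec2 was nearest to Wsb2 (0.93) and Dab2ip (0.93), Agap2 to Palm (0.90) and Epn1 (0.89), and Baiap2 to Flrt1 (0.90) and Mast3 (0.89). Looser neighbours were found for Camk2b (Smarcb1 and Kdm4a, both 0.81), Camk2d (Klhl13, 0.77, and Jpt2, 0.72) and Sipa1l1 (Amigo1, 0.76, and Dcaf1, 0.73).

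Counts of other genes of these pathways stand beside the 10.9% of all tested genes higher and 9.43% lower with lithium in HT mice, and the 7.66% higher and 5.11% lower in WT mice. Of 21 small GTPases, 9 were lower and 0 higher in HT mice on lithium, and 12 did not pass. In WT mice 6 were lower and 0 higher, 15 did not pass, and 5 were lower in both genotypes. Cdc42, which organises actin in spines, changed by -0.25 ± 0.05 in HT mice (limma adjusted p = 2.15e-04) and -0.17 ± 0.05 in WT mice (limma adjusted p = 0.0147). The other leading genes were Arf4 (-0.20 ± 0.04) and Rap1a (-0.34 ± 0.08) in HT mice, and Rras2 (-0.32 ± 0.07) and Rhoa (-0.11 ± 0.03) in WT mice. The list medians were -0.08 in HT and -0.11 in WT mice. With the GC trend removed 5 passed in HT mice, and in HT males alone 3 were lower and 4 higher.

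Ras and Rap regulators had 5 of 18 higher and 0 lower in each genotype, 2 of them in both, beside 10.9% of all genes higher in HT and 7.66% in WT mice. Sipa1l3, a relative of Sipa1l1, changed by 0.35 ± 0.06 in HT mice and 0.32 ± 0.06 in WT mice (limma adjusted p = 2.23e-05 in HT and 2.13e-04 in WT mice). Of 18 Arf regulators, 6 were higher and 0 lower in HT mice, led by Arfgef2 (0.18 ± 0.04), Git1 (0.36 ± 0.09) and Agap3 (0.29 ± 0.08). In WT mice 3 were higher, led by Acap2 (0.24 ± 0.05), and 2 lower. The list medians with lithium in HT mice were 0.15 for Ras and Rap and 0.11 for Arf regulators, beside -0.002 over all genes. Fold changes followed GC content in HT mice (Spearman 0.47) and transcript length in WT mice (0.34). The counts of these lists are given with neither trend removed.

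In HT mice the counts of the next 4 lists were near what 10.9% higher and 9.43% lower over all genes would give at their sizes, and are a description of single genes, not a result about the lists. Of 12 other CaM kinases and CaMKII inhibitors, 2 were higher in HT and 3 in WT mice on lithium, and 0 were lower in either. Dapk1, a calmodulin-dependent death-associated kinase, changed by 0.21 ± 0.03 in HT mice (limma adjusted p = 1.64e-05) and 0.24 ± 0.04 in WT mice (limma adjusted p = 3.83e-06). Camk1g changed by 0.34 ± 0.09 in HT and 0.40 ± 0.10 in WT mice. Of 14 calmodulin and calmodulin-binding genes, Calm2, one of the calmodulin genes, was the only one that passed, lower in HT (-0.23 ± 0.06) and WT mice (-0.26 ± 0.06). In HT mice this count depended on the processing: 0 passed with the GC trend removed, while 7 were lower and 1 higher with the bulb markers as a covariate. Of 26 other postsynaptic kinases, phosphatases and anchors, 3 were higher and 1 lower in HT mice, and 0 passed in WT mice. Mink1 (0.29 ± 0.07), Src (0.21 ± 0.05) and the anchor Akap5 (0.30 ± 0.09) were the 3 that rose. Of 20 actin effectors and IRSp53 partners tested, 3 were higher, among them Limk1 (0.26 ± 0.08), and Abi1 was lower (-0.20 ± 0.05) in HT mice, while Enah (0.16 ± 0.04) alone passed in WT mice.

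With fluoxetine in WT mice, 5 small GTPases were lower and 0 higher, led by Nras (-0.19 ± 0.05, limma adjusted p = 0.012). Of the other CaM kinases, Camk1g alone passed (0.32 ± 0.09), and of the 18 Ras and Rap regulators 1 was higher, beside 5.66% of all genes called in either direction. These comparisons share the WT vehicle libraries with those of lithium.

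**Figure D5:**
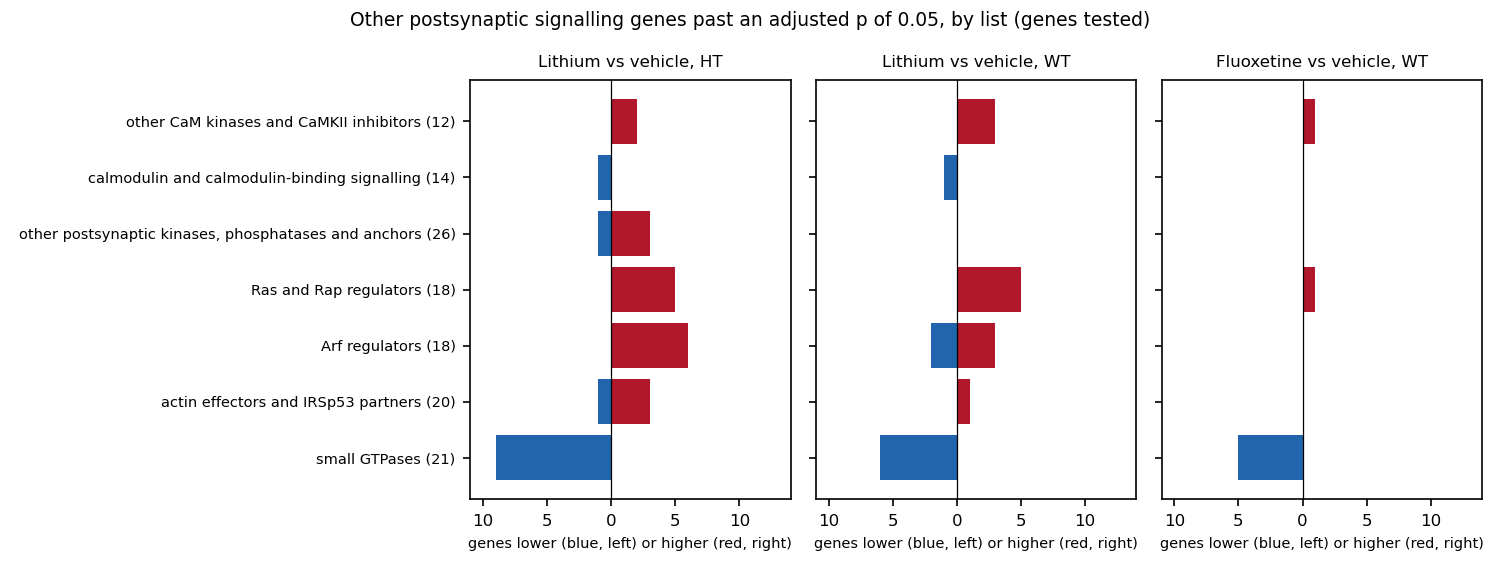
Numbers of genes in 7 pathway lists past an adjusted p of 0.05, higher (red, right) or lower (blue, left), for lithium in HT mice, lithium in WT mice and fluoxetine in WT mice, with the number of genes tested in brackets. Small GTPases (9, 6 and 5 lower) have bars to the left alone, and Ras and Rap regulators (5, 5 and 1 higher) have bars to the right alone.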

How the data were processed

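Prefrontal cortex libraries were made with a kit that keeps strand and selects mRNA, per the labels' protocols. Per the submitters' processing notes, the authors' tools were Salmon 0.11.2, R 3.6.0 and DESeq2 1.19.11, and the build was GRCm38. What they deposited as signal are normalized counts (counts over a size factor per library) of 18088 genes in 59 libraries. Size factors ran from 0.783 to 1.245. Dividing by each library's smallest step gave whole numbers for 100.0% of values within 0.001, so whole reads were recovered, 22984556 to 35969254 per library. Which genes were left out upstream is not given in the sources used here. All per-sample columns were used (0 unused). Symbols were found for 18077 IDs.

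A pseudocount of 1 was added before the log2 step, which understates fold changes of low genes. Tests in limma 3.58.1 (R 4.3.3, trend and robust options) covered the 16599 genes whose mean reached 10, with a mean for each of 12 groups and 47 residual degrees of freedom. All tests were two-sided, with Benjamini-Hochberg adjustment within each of 14 comparisons at 0.05. The members, lists and libraries that stand apart were chosen with earlier results of these data known. Named were all members, up to 3 called genes per pathway list by p, and the 2 nearest neighbours of each member, and some items these choices gave are not reported here.

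Alternatives were the replicate number as a block, a fit on only the groups compared, quantile normalization, pseudocounts of 0.5 and 5, and all genes unfiltered. Others were edgeR 4.0.16 and DESeq2 1.42.0 on the recovered reads, and a GC or a length trend removed within libraries (loess, span 0.5, degree 1). Each sex alone and each library left out were also fitted. In fits named by the bulb index, the covariate was the mean log2 level of the 8 bulb markers. A fit without 8 libraries and one with GC and bulb corrections together were added after seeing the data. Replicate numbers did not pair the mice: libraries of the same number had a median correlation of deviations of -0.009, against 0.000 for different numbers. No 2 libraries of a group agreed within sampling noise (lowest chi-square per gene 4.98). Checks used Python 3.11.15 and scipy 1.17.1.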

Additional observations from a re-analysis of the deposited data

Results flagged for a closer look

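Single libraries lay far from the rest of their group of one sex in 6 of 108 groups of values, and chance alone flags about 1 in 20. Camk2g stood at 5624 normalized counts in HT fluoxetine male 5, against 6466 to 6785 in the other males of that group, and Kalrn at 14353 in the same library, against 17417 to 18158. That library had a bulb index of 2.51. Agap2 stood at 42384 in WT vehicle male 3, against 34403 to 36118. Sipa1l1 was low in HT lithium female 1 (11311, against 12286 to 12503) and high in WT lithium female 2 (13435, against 12237 to 12417). Baiap2 reached 9814 in WT fluoxetine male 4, against 7761 to 8139. The part of bulb tissue in these values was not tested.

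The fluoxetine effect on Camk2b in WT mice differed between females and males by 0.29 ± 0.09 on the log2 scale (limma adjusted p = 0.0284), with 0.19 in females and -0.10 in males. Of the 5 fluoxetine females, the 3 highest were libraries with a bulb index above 2.5. The difference still passed with the bulb markers as a covariate, and did not pass without the libraries that stood apart.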

How the results depend on the processing

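With lithium in HT mice, 5 members passed as reported, 0 with the GC trend removed, 2 with GC and bulb corrections and 1 in females alone (Sipa1l1). Quantile normalization gave 4 (Agap2 and Sipa1l1 lost, Kalrn gained), and the unfiltered fit gave 4 (Camk2d lost). Males alone gave 5 (Agap2 and Sipa1l1 lost, Camk2a and Kalrn gained), and single libraries left out gave 4 to 7. With lithium in WT mice, 1 passed as reported. The replicate block, only the groups compared, edgeR, DESeq2, the bulb index, GC and bulb together, and the fit without 8 libraries each gave 2, the length trend removed, females alone and males alone gave 0, and single libraries left out gave 0 to 2. For fluoxetine in WT mice, 1 passed; quantile normalization, only the groups compared, the length trend removed and males alone gave 0, the fit without 8 libraries 4, and single libraries left out 1 to 2. For HT against WT under fluoxetine, 0 passed; DESeq2 gave 1, the bulb index 2, GC and bulb together 1, and single libraries left out 0 to 1. For sex by fluoxetine in WT mice, 1 passed (Camk2b). Only the groups compared, the GC trend removed, GC and bulb together and the fit without 8 libraries gave 0. Quantile normalization gave 1 (Camk2b lost, Agap2 gained), the bulb index 2 (Camk2b and Agap2), and single libraries left out 0 to 2. Signs turned for values near 0. With lithium in HT mice Camk2b was -0.01 under quantile normalization, Camk2g -0.01 with the bulb index and -0.04 with GC and bulb, and Enah -0.00 in males. With lithium in WT mice Camk2a was 0.05 under quantile normalization, 0.12 in females and up to 0.04 with a library left out; Camk2b -0.00 with the length trend removed, -0.03 in males and down to -0.00; Camk2d 0.00 with the bulb index, 0.01 in males and up to 0.02; Iqsec2 0.09 in females and -0.05 to 0.01 with a library left out; and Kalrn -0.04 with the length trend removed. For HT against WT under vehicle, Camk2d was -0.02 with the GC trend removed, -0.01 with GC and bulb, -0.02 without 8 libraries, -0.10 in females and down to -0.02 with a library left out. Its genotype by lithium difference was 0.01 in females. The causes were not tested. Over 13 settings, all genes called ran from 1908 to 4174 for lithium in HT mice (3374 as reported), 1177 to 3901 in WT mice (2120), 424 to 3690 for fluoxetine in WT mice (939), 0 to 198 in HT mice (46), 1 to 34 for genotype by lithium (1) and 1 to 1993 for sex by fluoxetine in WT mice (1438). Depth did not limit the members, whose fewest reads were 2197, for Camk2d.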
